A study of Mus musculus with 6 samples.

Results

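The 10 genes described here, Spry1, Spry2, Spry4, Spred1, Spred2, Dusp4, Dusp6, Etv1, Etv4 and Etv5, are genes that ERK signalling switches on, and they were chosen by name among the 55416 genes of the count files. Their RNA was counted in oligodendrocyte precursor cells of mouse cortex at postnatal day 11. In the 3 Ift88 cKO samples the mice carried Pdgfra-Cre, 2 floxed alleles of Ift88 (fl/fl) and the RosaEYFP reporter, and in the 3 Ift88 control samples they carried the same Cre and reporter with 1 floxed and 1 wild-type allele of Ift88 (fl/wt). Ift88 encodes a transport protein needed to build cilia, and the controls too carry a floxed copy that Cre can remove. Each sample was a pool of 4 to 6 mice, Cre was driven by the Pdgfra promoter, and the series title asks about cilia, proliferation and CREB signalling. Values are reads counted near the 3' end of each RNA, scaled to the total of the library (CPM). Such tags arise once per RNA whatever its length, so CPM could be set side by side between genes.

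Growth factors such as PDGF and FGF bind receptor tyrosine kinases, which pass a signal through RAS, RAF and MEK to the kinase ERK. ERK then raises its own brakes: Sprouty and Spred proteins restrain the path at and above RAF, and DUSP phosphatases remove the activating phosphates from ERK or its relatives. It also raises Etv1, Etv4 and Etv5, the PEA3 group of ETS transcription factors, and RNA of all these genes is widely read as a sign of ERK output. PDGF and FGF are known mitogens of oligodendrocyte precursors.

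One library and the cell markers bear on every value below. Total counts were 11773548 to 13909236 in 5 libraries, called the deeper libraries here, and 568509 in cKO replicate 2, where only 3651 genes had a count. In that library a list of 8 choroid plexus markers, 3 of them detected, summed to 48057 CPM. The same list summed to 591 and 858 CPM in the other cKO libraries and to 125 to 359 CPM in the controls. Of 14 precursor markers, 6 had no count in any deeper library, among them the lineage factor Sox10, and the list summed to 225, 7.04 and 222 CPM in cKO replicates 1 to 3 against 340, 480 and 232 CPM in controls 1 to 3. The 13 neuron markers summed to 1751 to 6916 CPM over all libraries, so RNA of other cells was present. Ift88 itself had 1, 0 and 305 counts in the cKO libraries and 143, 32 and 167 counts in the controls. It did not separate the groups: cKO replicate 3, at 25.9 CPM, lay above every control and cKO replicate 1 below every control. A 3' tag may lie outside the floxed part, which was not tested, so these counts do not check the labels. In such bulk samples, fewer cells of a type and less RNA per cell cannot be told apart.

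Of the 10 genes, 8 reached 20 counts in all 5 deeper libraries. Spry1 and Etv1 were the other two, with 3 counts of Spry1 in cKO replicate 1 and 0 counts of Etv1 in control replicate 2. In cKO replicate 2, 9 of the genes had 0 counts and Dusp4 had 1. A count of 0 there allowed up to 5.28 CPM (3 counts of the total, counting error only), whereas the 2 other cKO libraries held 762 and 758 CPM of the 10 genes together. Such zeros were common in that library: of 7700 genes with a mean level between those of Spry1 (9.97 CPM) and Spry2 (117 CPM) in the deeper libraries, 77.8% had 0 counts in cKO replicate 2. Every comparison is therefore given with and without that library.

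**Figure D1:**
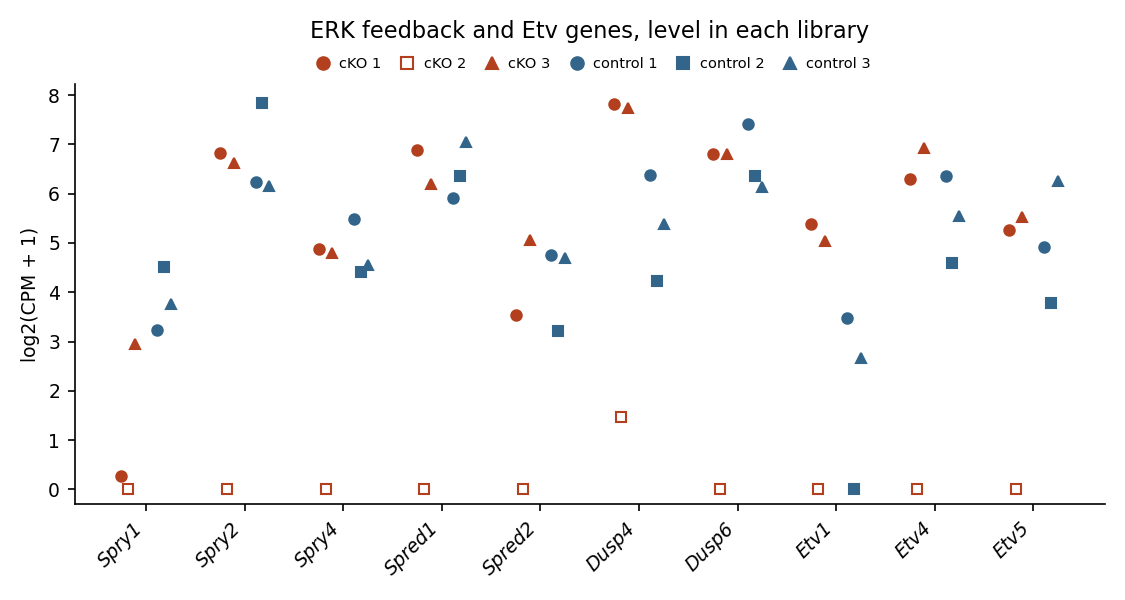
Level of each of the 10 genes in each library, as log2(CPM + 1) on the vertical axis, with the 3 cKO libraries left of the 3 controls for each gene and the shallow cKO replicate 2 as open squares. Dusp4 and Etv1 lay above every control in cKO replicates 1 and 3, Spry1 lay below every control, and cKO replicate 2 was at 0 for 9 genes.

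With all 6 libraries, 0 of the 10 genes passed an adjusted p under 0.05 in either direction by edgeR's quasi-likelihood test, where 0.00779% of 12833 genes passed as higher and 0.00779% as lower. None of the 10 had an unadjusted p under 0.05 in that fit either, against 2.83% of all genes tested. Fitted log2 fold changes (cKO over control) ran from -2.57 (SE 2.35) for Spry1 to 2.25 (SE 1.94) for Etv1. Their median was -0.47, close to the median of -0.44 over all 12833 genes. Without cKO replicate 2, 0 of 10 passed again, beside 0% of 14562 genes as higher and 0.00687% as lower. There 1 of 10, Dusp4, had an unadjusted p under 0.05, against 6.09% of all genes. DESeq2, run without cKO replicate 2 and added after the data were seen, called Dusp4 higher and no other of the 10, where 0.876% of 13699 genes passed as higher and 1.3% as lower. On counts simulated at the estimated dispersion, edgeR's test recovered 0 of 100 genes raised 16-fold and 0 of 100 lowered, with or without cKO replicate 2. Its 0 of 10 therefore does not show that the genes were unchanged.

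**Figure D2:**
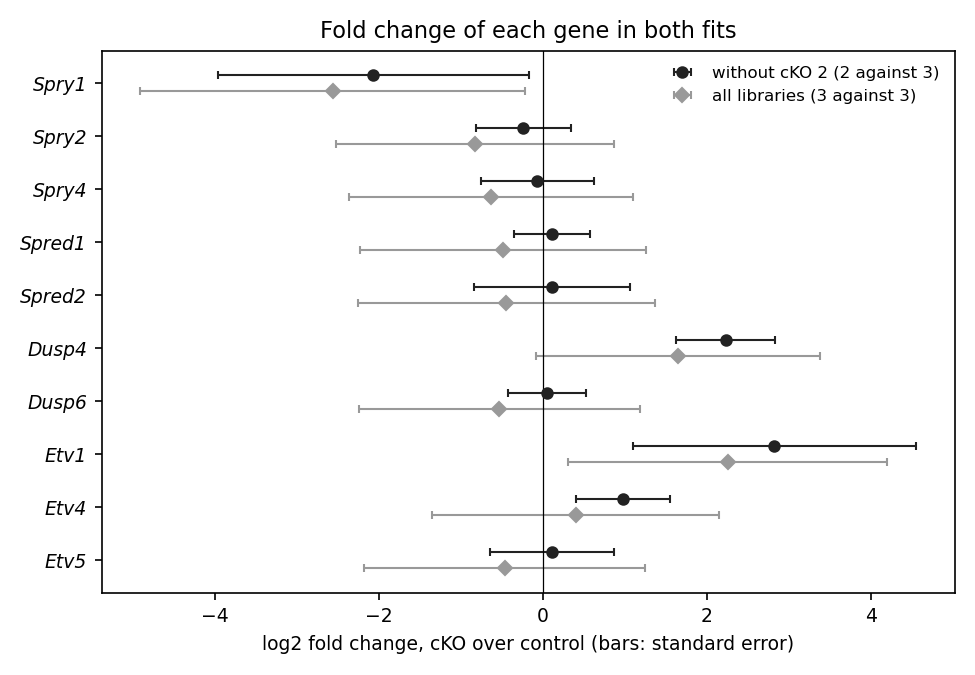
Log2 fold change, cKO over control, of each gene by edgeR's quasi-likelihood test with all 6 libraries (diamonds, 3 against 3) and without cKO replicate 2 (circles, 2 against 3), with bars of 1 standard error. Without cKO replicate 2 the bars shorten, and Dusp4 at 2.23 and Etv1 at 2.82 lie farthest above 0.

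The replicates of the 2 groups did not overlap for 3 of the 10 genes once cKO replicate 2 was left out. Dusp4 and Etv1 were higher in both cKO libraries than in every control, and Spry1 was lower. Among all 14562 genes tested, 13% lay wholly higher in this way and 12.6% wholly lower, so 2 and 1 of 10 are near the share seen for genes in general. With all 6 libraries, none of the 10 lay wholly higher, against 1.33% of 12833 genes, and Spry1 lay wholly lower, against 11.1%. None of them could lie wholly higher there. In cKO replicate 2 Dusp4, at 1.76 CPM, was below every control, and the others had no count. The 3 genes were singled out by their values and are described first within their families.

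Dusp4 encodes a nuclear phosphatase that inactivates MAP kinases (ENSMUSG00000031530, chromosome 8, 35274451 to 35287048, GRCm39). It had 3137, 1 and 2518 counts in cKO replicates 1 to 3, against 1129, 225 and 550 counts in control replicates 1 to 3. As CPM this was 226, 1.76 and 214 in the cKO libraries, against 82.7, 17.6 and 40.5 in the controls. The lower of the 2 deep cKO libraries was 2.59 times the highest control, and these cKO libraries differed by only 1.06-fold while the controls spanned 4.69-fold. Dusp4 was the most abundant of the 10 genes in both deep cKO libraries, and it ranked 2, 7 and 6 in controls 1 to 3.

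The mean of Dusp4 was 147 ± 126 CPM in cKO samples and 47.0 ± 33.0 CPM in controls (SD, n = 3), or 220 CPM in cKO replicates 1 and 3. The log2 fold change was 1.65 (SE 1.73, adjusted p = 1) with all 6 libraries and 2.23 (SE 0.61, unadjusted p = 0.00707, adjusted p = 0.767) without cKO replicate 2, by edgeR's quasi-likelihood test. That p ranked 130 of 14562. DESeq2 without cKO replicate 2 gave 2.26 (SE 0.66, adjusted p = 0.0353), and limma-voom on the same libraries gave 2.49 (adjusted p = 0.349). Over all 17 fits the value was positive, from 0.63 to 2.49, with adjusted p from 0.0353 to 1.

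Dusp6, the cytoplasmic phosphatase that acts on ERK itself, did not share this difference. It had 1539, 0 and 1304 counts in cKO libraries and 2313, 1029 and 943 in controls, or 111, 0 and 111 CPM against 169, 80.7 and 69.5 CPM. Both deep cKO libraries lay inside the control range. Its log2 fold change was -0.53 (SE 1.71) with all libraries and 0.05 (SE 0.48) without cKO replicate 2, with adjusted p = 1 in each edgeR fit. The ratio of Dusp4 to Dusp6 counts within a library does not depend on depth or scaling. It was 2.04 in cKO replicate 1 and 1.93 in cKO replicate 3, against 0.49, 0.22 and 0.58 in controls 1 to 3; this ratio was chosen after the values were seen and was not tested.

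Etv1 (ENSMUSG00000004151, chromosome 12, 38829379 to 38920483, GRCm39) was the least abundant of the 10 genes in the controls. It had 571, 0 and 375 counts in cKO libraries, against 139, 0 and 73 in controls. As CPM this was 41.1, 0 and 31.9 against 10.2, 0 and 5.38, so the lower deep cKO library was 3.13 times the highest control. The 0 in control replicate 2 stood in a library of 12756650 counts, where it allows up to 0.235 CPM. Among the 7700 genes of like level over the deeper libraries, 10.6% also had 0 counts in at least 1 of these libraries. That range of levels starts at 9.97 CPM, above the control mean of Etv1, 5.19 CPM. The log2 fold change was 2.25 (SE 1.94, adjusted p = 1) with all 6 libraries and 2.82 (SE 1.73, adjusted p = 0.869) without cKO replicate 2 by edgeR's test, and it was positive in all 17 fits (1.62 to 4.80, adjusted p from 0.533 to 1).

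Its relatives were more evenly spread. Etv4 had 1081, 0 and 1414 counts in cKO libraries and 1110, 297 and 618 in controls, or 77.7, 0 and 120 CPM against 81.3, 23.3 and 45.6 CPM. Here cKO replicate 1 lay just inside the control range, at 0.956 of the highest control. The log2 fold change of Etv4 was 0.40 (SE 1.75, adjusted p = 1) and, without cKO replicate 2, 0.98 (SE 0.58, adjusted p = 0.850) by edgeR's test. It turned to -0.30 without cKO replicate 3. Etv5 had 521, 0 and 530 counts in cKO libraries and 399, 162 and 1030 in controls, with the controls on both sides of the deep cKO libraries. Its log2 fold change was -0.47 (SE 1.71), or 0.11 (SE 0.76) without cKO replicate 2, with adjusted p = 1 in both edgeR fits.

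Spry1 encodes a Sprouty protein, and it was the only one of the 10 below every control in all cKO libraries (ENSMUSG00000037211, chromosome 3, 37694096 to 37698747, GRCm39). It had 3, 0 and 79 counts in cKO libraries and 115, 279 and 171 in controls, or 0.216, 0 and 6.71 CPM against 8.42, 21.9 and 12.6 CPM. The 2 deep cKO libraries differed by 31.1-fold, the widest gap among the 10 genes, and cKO replicate 3 fell short of the lowest control by only 1.26-fold. The log2 fold change of Spry1 was -2.57 (SE 2.35, adjusted p = 1) and -2.07 (SE 1.90, adjusted p = 1) without cKO replicate 2 by edgeR's test. It was negative in all 17 fits, from -6.23 without cKO replicate 3 to -1.99 without cKO replicate 1, with adjusted p from 0.400 to 1. An annotated antisense gene shares 24.4% of the exon bases of Spry1 and none of its last 500, and had 0 counts in every library; the exons of the other 9 genes overlap no other annotated exon.

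The other Sprouty genes did not follow Spry1. Spry2, with the highest mean of the 10 in the controls, had 1562, 0 and 1150 counts in cKO libraries and 1022, 2895 and 960 in controls. Control replicate 2 alone reached 227 CPM, against 112 and 97.7 CPM in the deep cKO libraries and 74.9 and 70.8 CPM in the other controls. Spry4 had 395, 0 and 314 counts against 601, 260 and 305, and its deep cKO libraries (28.4 and 26.7 CPM) lay within the controls (20.4 to 44.0 CPM). Without cKO replicate 2 the log2 fold change was -0.24 (SE 0.58) for Spry2 and -0.07 (SE 0.69) for Spry4, with adjusted p = 1 for each by edgeR's test. With all 6 libraries these were -0.83 (SE 1.70) and -0.63 (SE 1.74).

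Both Spred genes, whose proteins bind neurofibromin and hold RAS in check, also overlapped between the groups. Spred1 had 1641, 0 and 852 counts in cKO libraries and 803, 1027 and 1795 in controls, or 118, 0 and 72.4 CPM against 58.8, 80.5 and 132 CPM. Spred2 had 147, 0 and 382 counts against 357, 106 and 340, so that its deep cKO libraries, at 10.6 and 32.5 CPM, differed 3.07-fold and overlapped the controls at 8.31 to 26.2 CPM. The log2 fold change without cKO replicate 2 was 0.11 (SE 0.46) for Spred1 and 0.12 (SE 0.95) for Spred2, with adjusted p = 1 by edgeR's test, and -0.48 (SE 1.75) and -0.45 (SE 1.81) with all 6 libraries.

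Among the controls the mean level ran from 124 ± 89.0 CPM for Spry2 over Dusp6 (107 ± 54.8), Spred1 (90.5 ± 37.8), Etv4 (50.1 ± 29.3), Dusp4 (47.0 ± 33.0), Etv5 (39.3 ± 32.8), Spry4 (29.0 ± 13.1), Spred2 (19.8 ± 10) and Spry1 (14.3 ± 6.88) to Etv1 (5.19 ± 5.09; SD, n = 3 each). Neighbours in this order differed by less than the larger of their SDs except Spred1 and Etv4, 40.5 CPM apart, and Spry1 and Etv1, 9.11 CPM apart. In cKO replicates 1 and 3 the mean of Dusp4, 220 CPM, came before Dusp6 (111), Spry2 (105), Etv4 (98.9), Spred1 (95.2), Etv5 (41.2), Etv1 (36.5), Spry4 (27.5), Spred2 (21.5) and Spry1 (3.46).

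**Figure D3:**
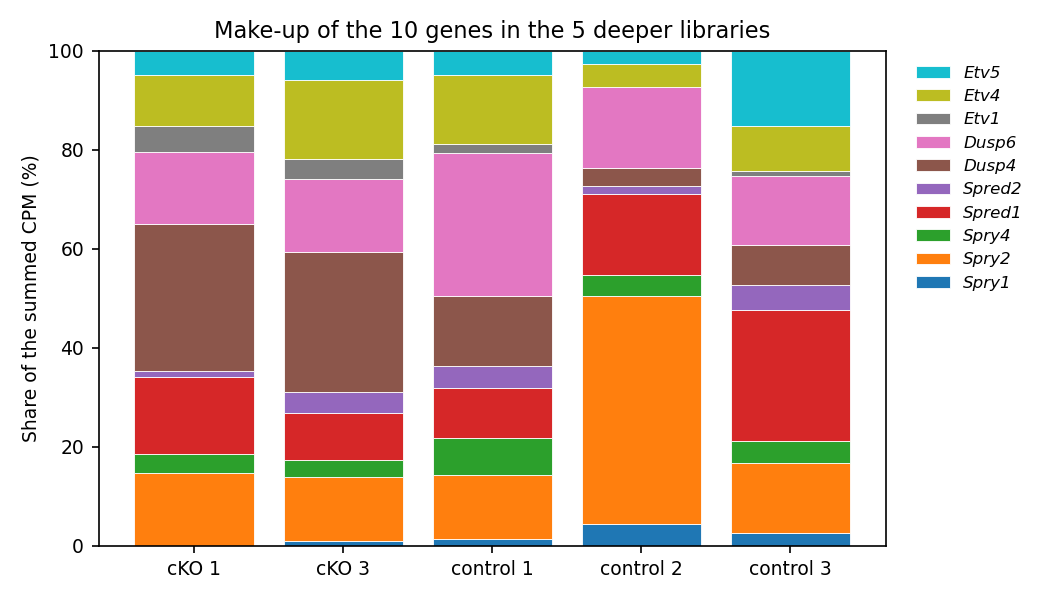
Share of each gene in the summed CPM of the 10 genes, in percent, in the 5 deeper libraries, with the cKO libraries on the left. Dusp4 made up 29.6% and 28.2% in cKO replicates 1 and 3 and 3.58% to 14.1% in the controls, and Spry2 made up 46.1% in control replicate 2.

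The summed level of the 10 genes was 762, 1.76 and 758 CPM in cKO libraries 1 to 3, against 585, 492 and 500 CPM in the controls. Dusp4 accounted for most of this gap in the deep libraries. Without Dusp4 the other 9 summed to 536 and 544 CPM in cKO replicates 1 and 3 and to 502, 475 and 460 CPM in the controls. By family, the 2 Dusp genes summed to 336 and 325 CPM in these cKO libraries against 252, 98.3 and 110 CPM, and the 3 Etv genes to 156 and 197 against 121, 36.0 and 127 CPM. The Sprouty genes (141 and 131 against 127, 269 and 106 CPM) and the Spred genes (129 and 105 against 85.0, 88.8 and 157 CPM) overlapped. With all 3 cKO libraries the sum was 507 ± 438 CPM against 526 ± 51.5 CPM (SD, n = 3).

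The cell markers also differed between the libraries. In cKO replicates 1 and 3, where Dusp4 and Etv1 were high, the 13 neuron markers summed to 6900 and 6916 CPM, compared with 6209, 5053 and 1751 CPM across the controls, with 9 and 11 against 12, 11 and 12 of them detected. The 10 astrocyte and radial glia markers summed to 2689 and 2840 CPM in these cKO libraries and to 2889, 7449 and 5284 CPM in the controls, with 7 of 10 detected in each cKO library and 10 of 10 in each control. For comparison, Dusp4 was at 82.7, 17.6 and 40.5 CPM and Etv1 at 10.2, 0 and 5.38 CPM in controls 1 to 3. No neuron or astrocyte marker was at 0 in all 5 deeper libraries. The part of these differences in the values of the 10 genes was not tested.

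The controls alone spread widely. On the log2(CPM + 1) scale the gap between the highest and lowest control was 1.07 for Spry4, 1.16 for Spred1, 1.27 for Dusp6 and 1.28 for Spry1, and it was 2.17 for Dusp4, 2.49 for Etv5 and 3.48 for Etv1. The median over the 7700 genes of like level was 1.32, with quartiles at 0.79 and 2.11, and 76.1%, 81.2% and 90.1% of them had a smaller gap than Dusp4, Etv5 and Etv1. The control mean of Etv1, 5.19 CPM, lies below that range of levels, which starts at 9.97 CPM. Between cKO replicates 1 and 3 the gap was 0.77 for the median gene and under that for 8 of the 10, with Spry1 (2.67) and Spred2 (1.53) above it. The common biological coefficient of variation in edgeR was 1.34 with all libraries and 1.15 without cKO replicate 2.

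**Figure D4:**
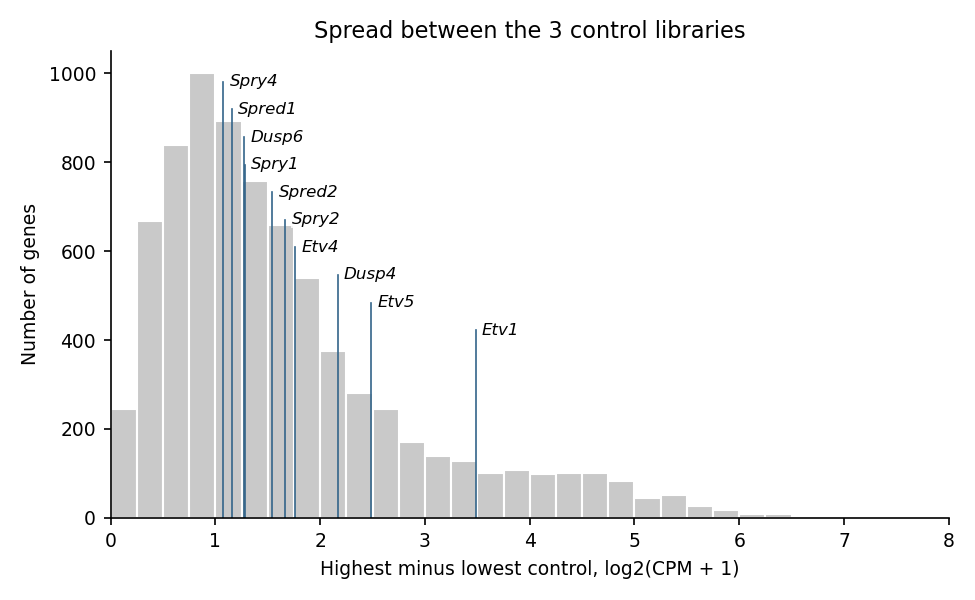
Number of genes (vertical axis) by the gap between the highest and lowest of the 3 control libraries on the log2(CPM + 1) scale (horizontal axis), for 7700 genes with a mean level in the range of the 10 genes; lines mark the 10 genes. Spry4 at 1.07 is nearest the left and Etv1 at 3.48 farthest right.

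Among other genes of this pathway, 0 of 10 tested growth factor ligands, 0 of 14 receptor tyrosine kinases, 0 of 26 members of the RAS to ERK cascade and 0 of 17 other ERK feedback and response genes passed adjusted p under 0.05 in all 6 libraries by edgeR's test (of 25, 18, 30 and 22 in the files), with an unadjusted p under 0.05 in 2, 0, 0 and 0 of them. Without cKO replicate 2, 0 of 12, 16, 28 and 18 passed, with 2, 2, 1 and 0 below an unadjusted 0.05. The median log2 fold changes of the 4 lists in that fit were -0.73, 0.79, 0.34 and -0.24, beside -0.06 over all genes. As for the 10 genes, edgeR's test could miss large changes at this dispersion, so these counts of 0 do not show unchanged genes.

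Among ligands, Fgf2 and Fgf18 were at 0 in every cKO library. Of 12 tested ligands, 3 (Fgf2, Fgf18 and Pdgfc) lay wholly lower in cKO replicates 1 and 3 than in the controls, and 1 (Nrg1) lay wholly higher. The shares over all genes were 12.6% lower and 13% higher. Fgf2 and Fgf18, with no cKO count, passed the filter only through the controls, so lying wholly lower was fixed beforehand for both. Fgf2, a mitogen of precursors, had 105, 29 and 91 counts in controls, and pooled over each group it was at least 49.2-fold lower in cKO samples (48.2-fold over cKO replicates 1 and 3) against a limit of 3 counts. Fgf18 had 55, 73 and 62 control counts and was at least 41.6-fold lower (40.7-fold). These bounds cover counting error only, and the edgeR adjusted p was 1 for both with all libraries and 0.767 for both without cKO replicate 2. Pdgfc, a PDGF ligand, had 388, 0 and 115 counts in cKO libraries and 497, 877 and 668 in controls, and Nrg1, which encodes neuregulin 1, a ligand of ErbB receptors, had 698, 1 and 333 against 356, 235 and 189. Pdgfa, the main ligand of Pdgfra, had 160, 0 and 1 counts in cKO libraries and 0 in each control, so it was not detectable in most libraries.

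Receptor genes differed in both directions in the deep cKO libraries. Wholly higher in cKO replicates 1 and 3 than in the controls were 4 of 16 tested receptors, Fgfr1, Fgfr2, Fgfr4 and Pdgfra, and 1, Fgfr3, was wholly lower, beside 13% and 12.6% of all genes. Fgfr4 passed the filter only through cKO replicates 1 and 3, so its place among the higher genes was fixed beforehand. Fgfr1 had 136, 0 and 107 CPM in cKO libraries and 56.0, 30.0 and 62.9 CPM in controls, and its log2 fold change by edgeR's test was 1.32 (SE 0.44, adjusted p = 0.767) without cKO replicate 2 and 0.73 (SE 1.76, adjusted p = 1) with it. Fgfr3, a receptor abundant in astrocytes, had 1, 0 and 19 counts against 114, 95 and 56. The astrocyte and radial glia markers, given above, were detected as 7 of 10 in cKO replicates 1 and 3 and as 10 of 10 in each control, with summed levels of 2689 and 2840 CPM next to 2889 CPM in control replicate 1 and below the other controls; their part in the values of Fgfr3 was not tested. Pdgfra had 155, 0 and 121 counts against 0, 59 and 56, and Fgfr4 had 12, 0 and 65 against 1, 0 and 0. Fgfr2 had 29.8, 0 and 51.6 CPM in cKO libraries and 11.1, 25.8 and 27.9 CPM in controls. The best detected receptor was Ntrk2, which binds the neurotrophin BDNF, with 4015, 2 and 2616 counts in cKO libraries and 6788, 3531 and 5155 in controls, and next came Ntrk3, the receptor of neurotrophin 3, with 1612, 0 and 2391 against 1618, 776 and 3903. Erbb2, with the smallest p of the list, had 434 counts in the shallow cKO replicate 2 and 381 and 815 in the others, against 834, 788 and 595; its mean was 287 ± 413 CPM in cKO samples and 55.6 ± 10.2 CPM in controls (SD, n = 3), or 48.3 CPM without that library.

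**Figure D5:**
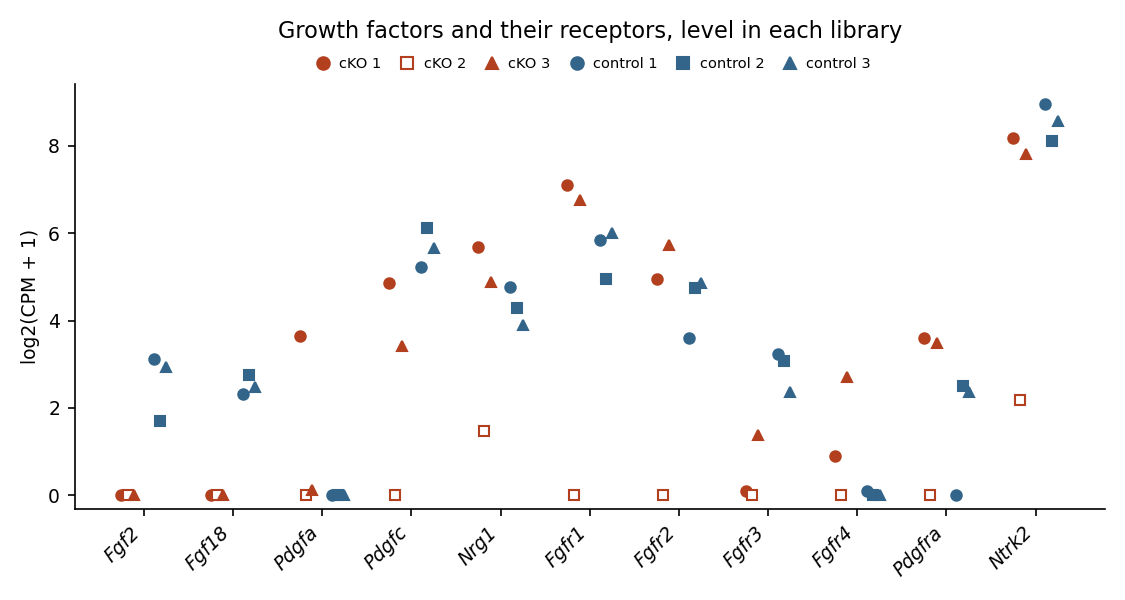
Level of growth factor and receptor genes in each library as log2(CPM + 1), drawn as for the 10 genes, with cKO libraries left of controls. The genes drawn include every tested ligand and receptor wholly higher or wholly lower in cKO replicates 1 and 3. Most of those that overlapped the controls are not drawn. Fgf2 and Fgf18 were at 0 in all cKO libraries, and Fgfr1 lay above every control in cKO replicates 1 and 3.

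Within the cascade, Mapk3, which encodes ERK1, was well detected and overlapped between the groups. It had 3282, 1 and 2609 counts in cKO libraries and 1923, 1818 and 3436 in controls. Rps6ka2 and Rps6ka3, which encode RSK kinases downstream of ERK, had the smallest p of the list (edgeR adjusted p = 1 for both). Their cKO means of 202 ± 289 and 191 ± 153 CPM, against 24.5 ± 23.8 and 53.5 ± 29.0 CPM in controls (SD, n = 3), rested on 304 and 208 counts in cKO replicate 2 and were 35.8 and 103 CPM without it. Cic, a repressor of the Etv genes that ERK relieves, had 106, 0 and 387 counts against 255, 127 and 595.

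Among other genes that respond to ERK, the best detected also overlapped between the groups. Fos had 2008, 0 and 1909 counts in cKO libraries and 1140, 3512 and 3389 in controls, and Egr1 had 977, 0 and 1824 against 378, 1119 and 4020; both encode immediate early transcription factors. The relatives Etv3 (0, 0 and 40 against 11, 276 and 584 counts) and Dusp7, another ERK phosphatase (0, 0 and 19 against 1, 141 and 445), had the smallest p of this list, with edgeR adjusted p = 1 for both. Dusp5, a nuclear ERK phosphatase chosen here after its values were seen, had 849, 0 and 321 counts against 193, 239 and 430, so its cKO replicate 3 (27.3 CPM) fell inside the controls (14.1 to 31.7 CPM). Flrt3, a membrane protein induced by FGF, was the 1 of 18 tested genes of this list wholly higher in cKO replicates 1 and 3, beside 13% of all genes, with 1112, 0 and 558 counts against 51, 346 and 1.

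Promoters were read for 7 of the 10 genes from RefSeq on GRCm38.p6, a different build from that of the counts, as the 250 bases before each start. The sequences of Etv1 and Spry1 are shown because their deep cKO libraries lay on opposite sides of the controls, and that of Dusp6 because its cKO libraries lay within them. They are given 5′ to 3′ in the direction of the gene (Etv1 chr12:38779832-38780081, Spry1 chr3:37639697-37639946, Dusp6 chr10:99262981-99263230, all on the plus strand), with capitals for the ETS core GGAAG or its reverse complement CTTCC.
Etv1: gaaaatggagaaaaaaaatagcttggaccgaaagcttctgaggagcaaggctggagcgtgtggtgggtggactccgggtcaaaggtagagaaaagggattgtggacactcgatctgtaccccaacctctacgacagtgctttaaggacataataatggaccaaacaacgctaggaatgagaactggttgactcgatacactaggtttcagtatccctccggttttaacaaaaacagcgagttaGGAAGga
Spry1: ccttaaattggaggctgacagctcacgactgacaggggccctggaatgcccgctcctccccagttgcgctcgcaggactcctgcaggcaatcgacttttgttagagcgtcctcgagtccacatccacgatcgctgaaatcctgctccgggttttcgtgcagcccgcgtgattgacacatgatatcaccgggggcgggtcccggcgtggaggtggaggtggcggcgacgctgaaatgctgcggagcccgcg
Dusp6: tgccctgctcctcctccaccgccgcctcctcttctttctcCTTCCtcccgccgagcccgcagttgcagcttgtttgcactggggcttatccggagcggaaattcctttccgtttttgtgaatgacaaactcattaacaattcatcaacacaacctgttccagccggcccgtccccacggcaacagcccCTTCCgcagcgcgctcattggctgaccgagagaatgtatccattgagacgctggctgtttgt

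None of the 9 promoters of these 7 genes held TGAATGAA or TGAATGGA, letters bound by Cic, nor the ETS site CCGGAAGT, the cAMP response element TGACGTCA or the AP-1 site TGACTCA on either strand; 1.08%, 1.01%, 2.88%, 1.55% and 4.46% of 32851 promoters of the same length held each of them. The ETS core GGAAG, which lies within CCGGAAGT, occurred at 1 of the 2 Etv1 starts, 1 of the 2 Etv5 starts and in Spred1, Spred2 and Dusp6, against 64.1% of all promoters. The core TGACG of the cAMP response element, which lies within TGACGTCA, occurred in Spred2, against 17.8% of all. Of the bases shown, 46.4% were G or C in Etv1, 62.4% in Spry1 and 56.4% in Dusp6, beside a median of 52.4% over all promoters. These matches describe the letters of the windows and nothing of binding.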

How the data were processed

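RNA of 3 Ift88 cKO and 3 Ift88 control samples was counted from QuantSeq 3' FWD libraries, per the labels' protocols. Per the file headers, the authors counted reads over Ensembl 104 exons of GRCm39 with featureCounts 2.0.0 and deposited the raw counts, with no strand or multi-mapping option. Strands and near-identical copies are therefore not resolved. The submitters' processing notes also list STAR, FastQC and DESeq2.

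Symbols were matched by identifier for 52083 of 55416 genes. Genes kept by filterByExpr were scaled by TMM and fitted across all genes in edgeR 4.0.16 (R 4.3.3; robust glmQLFit, glmQLFTest, two-sided, Benjamini-Hochberg adjustment over all genes tested). SE is the fold change divided by the square root of F. CPM used library totals. P-values measure the spread between pools. Each fold change was recomputed with upper-quartile or RLE scaling, with limma-voom 3.58.1, with DESeq2 1.42.0, with no filter, with a filter of 1 CPM in 3 libraries, with the replicate number as a block and without each library, and calls were also counted at an adjusted p of 0.10. Fits without cKO replicate 2 by DESeq2, limma-voom and without a filter, and the motifs GGAAG and TGACG, were added later. The 10 genes, lists and tests were chosen with earlier results of these data known. Named beside the 10 were, per list, the 2 genes of smallest p and the 2 of highest mean, the 3 of nearest profile and Ift88, of which 1 is not reported here; Pdgfa, Fgfr1, Fgfr2, Fgfr4, Pdgfra, Cic, Dusp5, Flrt3 and the marker genes fall outside that rule. On simulated counts with 200 genes changed 16-fold, edgeR recovered 100 of 100 raised and 100 of 100 lowered genes at a dispersion of 0.05, and 0 of 100 and 0 of 100 at the estimated dispersion, in all 6 libraries (12833 genes) and without cKO replicate 2 (14562 genes) alike. Figures were drawn with matplotlib 3.10.9.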

Additional observations from a re-analysis of the deposited data

How the results depend on the processing

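Of 160 alternative fold changes of the 10 genes, 138 kept their direction and side of the threshold, 1 passed it (Dusp4 by DESeq2 without cKO replicate 2, 2.26, adjusted p = 0.0353) and 21 changed sign, none of them past the threshold. By edgeR without cKO replicate 2 the log2 fold change was 0.11 for Spred1, 0.12 for Spred2, 0.0524 for Dusp6 and 0.11 for Etv5, and without the filter as well 0.14, 0.13, 0.0771 and 0.13. DESeq2 without that library gave 0.14, 0.13, 0.0817 and 0.13 for the same genes in that order. Leaving out 1 library at a time, these ran from -1.32 (Spred1), -1.75 (Spred2), -0.97 (Dusp6) and -0.95 (Etv5). Limma-voom without it gave 0.13 for Spred1, 0.19 for Dusp6, 0.39 for Etv5, 0.0196 for Spry2 and 0.04 for Spry4. Etv4 was -0.39 by limma-voom with all libraries, -0.77 with the replicate block and -0.30 without cKO replicate 3 (0.98 without cKO replicate 2), and Etv5 was 0.38 without control replicate 3. The cause was not tested.

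The number of the 10 genes called higher was 0 in the main fit and every alternative except DESeq2 without cKO replicate 2 (1), and the number called lower was 0 in all; with all 6 libraries DESeq2 called 0 of the 10 as well. Over all genes, 1 was called higher and 1 lower. The higher count was 14 with RLE, 0 with upper-quartile scaling, 7 with DESeq2, 6 with limma-voom, 22 without the filter, 0 with the replicate block and 0 to 6 when 1 library was left out; without cKO replicate 2 it was 120 with DESeq2 and 0 with limma-voom or no filter. The lower count was 2 with RLE, 0 with upper-quartile scaling, 52 with DESeq2, 2 with limma-voom and 1 whichever library was left out, and without cKO replicate 2 it was 178 with DESeq2 and 0 with limma-voom. The difference of the summed level of the 10 genes, -18.8 CPM (cKO minus control), was 234 CPM without cKO replicate 2 and -146 to 10.9 CPM without another library. The SD between replicates was 438 CPM in cKO samples, with cKO replicate 2 among them, and 51.5 CPM in controls. The value without cKO replicate 2 exceeds the control SD. The sign of the difference turned without cKO replicate 2, and it also turned without control replicate 1 (10.9 CPM).

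The replicate numbers were not treated as pairs: deviations from the group means correlated at 0.08, 0.05 and 0.02 across genes for numbers 1, 2 and 3, although each of the 6 samples correlated best with its own number, a hint from the data only. In cKO replicate 2 a count of 0 allows a level of up to 5.28 CPM, which limits every value there.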

Other observations

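Over the 5 deeper libraries, the genes whose centred log2(CPM + 1) profile lay nearest that of Spry2, the member with the highest mean, were Gm12947, Hmgb1-rs17 and Gm17018, at root mean square distances of 0.09, 0.13 and 0.16 among 12832 genes compared. These 3 shared with Spry2 its high value in control replicate 2, with 2052, 516 and 626 counts in cKO replicate 1, against 1607, 399 and 411 in control replicate 1 and 4450, 902 and 892 in control replicate 2. Counts of genes with near-identical copies are uncertain here. Of the other 9 ERK genes the nearest was Spred1 at 0.77, and the farthest was Etv1 at 2.33. By distance these ranked only 3514 and 12512 among the 12832 genes.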
